A study of Mus musculus with 12 samples.

Results

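Expression of 9 genes of neutrophils and inflammatory myeloid cells was examined in Myc-CaP tumors from mice treated with YJ1206, a degrader of the kinases CDK12 and CDK13, or with vehicle. The genes are S100a8, S100a9, Il1b, Il1r2, Csf3r, Clec4d, Trem1, Mmp9 and Retnlg. They were chosen by name, on the basis of this same contrast, since neutrophil markers had appeared lower in treated tumors while markers of other leukocytes appeared higher. Their tumor values are therefore a description and carry no test. All 9 were found among the 34508 genes of the tumor table, and 8 of them passed the filter on low counts, the exception being Retnlg. The lower levels that led to the choice were seen in only some of the genes: Il1b, S100a8 and S100a9 were lower in every treated library than in every vehicle library, whereas the groups overlapped for the other 6 genes, and Csf3r, Il1r2 and Retnlg showed nearly equal group means.

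The tumors grew under the skin of male FVB mice from Myc-CaP cells, a cell line from a mouse prostate carcinoma driven by a human MYC transgene. The treated animals received oral YJ1206 (100 mg/kg per dose, 3 doses a week) and the controls the vehicle alone, with 3 RNA sequencing libraries in each group. Myc-CaP cells in culture treated with DMSO or with 1 µM YJ1206 for 24 h, again with 3 libraries each, gave levels in the tumor cells without a host. The tumors are bulk tissue, so a lower level can mean fewer cells of a type or less RNA per cell, and these cannot be told apart. The study's methods describe its data in general as coming from independent biological replicates. The labels do not tie the libraries to animals or cultures, and p-values measure the spread between these libraries. In the cultured cells the library numbers of the treatments form separate series, so batch and treatment cannot be told apart there.

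Neutrophils are short-lived phagocytes that mature in the bone marrow under granulocyte colony-stimulating factor and enter inflamed tissue and tumors along gradients of chemokines. S100a8 and S100a9 pair to form calprotectin, a calcium-binding protein abundant in the neutrophil cytosol that acts as a danger signal once released. IL-1β, made as a precursor and cleaved by caspase-1, drives inflammation and is produced by macrophages and monocytes as well as by neutrophils. None of the 9 genes is restricted to the neutrophil, which is better marked by Ly6g and by the proteases and antimicrobial proteins of its granules.

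Library totals ranged from 15391544 to 26928365 estimated counts in tumors, where 3 counts correspond to 0.111 to 0.195 CPM (estimated counts scaled to a common library size), and from 13936902 to 18519926 in cells. The 9 genes were scarce, with 4 to 108 counts per tumor library. Among 419 genes that differed at least 2-fold between vehicle libraries 1 and 2 at a mean of at least 5 CPM, library 3 lay between those libraries for 99.3%. In YJ1206 tumors it did so for 98.8% of 171 such genes. Whether the third library of each group is independent of the others was not tested, and results are also given from libraries 1 and 2 alone. With those 4 libraries, 1 gene of the whole table passed edgeR's quasi-likelihood test at a Benjamini-Hochberg adjusted p under 0.05, against 4176 with all 6, although 3068 had an unadjusted p under that value. Of the 9 genes, library 3 lay between for 5 in the vehicle group and 3 in the YJ1206 group. These genes were all below 5 CPM and were counted without the 2-fold limit. Their numbers are therefore not comparable with the shares above.

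The promoters of the 3 genes whose groups did not overlap are shown first, since the tumor values turn on these genes. They were singled out by the same contrast as the set itself, so their promoters are a description, and nothing is read from the shares of windows given beside them. Each window runs from 180 bases before the RefSeq transcription start to 30 bases after it, is read 5′ to 3′ on the gene's strand, and comes from RefSeq on GRCm38.p6. Capitals mark the letters TATAAA, the sequence of a TATA box, on the gene's strand and matches to TTNNGNAA, the core of the motif bound by C/EBP factors of myeloid cells, on either strand.

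S100a8, chr3:90668891-90669100, plus strand: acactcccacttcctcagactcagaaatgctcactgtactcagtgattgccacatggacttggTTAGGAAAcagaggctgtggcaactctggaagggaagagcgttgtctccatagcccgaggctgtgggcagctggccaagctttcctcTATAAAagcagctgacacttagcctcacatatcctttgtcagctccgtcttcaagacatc
S100a9, chr3:90695692-90695901, minus strand: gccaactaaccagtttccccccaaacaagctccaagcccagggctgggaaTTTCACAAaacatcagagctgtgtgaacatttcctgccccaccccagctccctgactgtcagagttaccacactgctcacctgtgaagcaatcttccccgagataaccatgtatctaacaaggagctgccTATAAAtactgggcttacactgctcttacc
Il1b, chr2:129371110-129371319, minus strand: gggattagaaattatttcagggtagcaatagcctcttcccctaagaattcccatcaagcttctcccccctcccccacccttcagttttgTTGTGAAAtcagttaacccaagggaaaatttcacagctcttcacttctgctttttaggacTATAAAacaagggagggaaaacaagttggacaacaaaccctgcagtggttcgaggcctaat

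The TATAAA letters began at position -30 in S100a8, at -31 in Il1b and at 1 in S100a9. In S100a9 the match lies inside the RefSeq transcript and not before its start. For S100a8 the GENCODE gene starts at chr3:90668978, upstream of the match, so the annotations differ on its start. In windows of 300 bases, from 250 before to 50 after the start, TATAAA occurred in 3 of the 8 members that were in the promoter table, and these were S100a8, S100a9 and Il1b. It occurred in 8.32% of all 32851 windows. TTNNGNAA occurred in 6 of the 8, against 40.7% of all windows, and GAGGAA, the core bound by the myeloid factor PU.1, searched on both strands, occurred in 4 of the 8 against 28.3%. Positions without a motif from this search say nothing about the binding of a factor.

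S100a8 and S100a9, the calprotectin subunits, were both lower in YJ1206 tumors, by about the same factor. S100a8 (ENSMUSG00000056054.9, chr3:90668978-90670035, plus strand in GENCODE M21 on GRCm38) was at 1.22, 1.01 and 1.03 CPM in vehicle libraries 1 to 3 and at 0.218, 0.537 and 0.773 CPM in YJ1206 libraries 1 to 3. The 3 treated libraries all lay below the 3 vehicle libraries, and YJ1206 library 1 was the lowest at 4 counts. The means were 1.09 ± 0.11 CPM (SD, n = 3) in vehicle and 0.510 ± 0.278 CPM (n = 3) in treated tumors, and the fitted log2 fold change was -1.08 with a standard error of 0.41. With single libraries left out the log2 fold change ranged from -1.48 to -0.74, its weakest value coming without YJ1206 library 1, and with libraries 1 and 2 alone it was -1.52.

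S100a9 (ENSMUSG00000056071.12, chr3:90692632-90695721, minus strand) was at 1.89, 1.24 and 2.39 CPM in vehicle and at 0.491, 0.850 and 0.980 CPM in YJ1206 libraries. The groups did not overlap here either, though YJ1206 library 3 and vehicle library 2 were close. The fitted log2 fold change was -1.21 with a standard error of 0.36, or 2.32-fold lower, ranged from -1.44 to -0.99 with single libraries left out, and was -1.20 with libraries 1 and 2 alone. Summed over libraries, the ratio of treated to vehicle levels was 0.474 for S100a8 (95% counting interval 0.300 to 0.734) and 0.450 for S100a9 (0.313 to 0.637), intervals that cover counting error only. Across the 6 libraries the 2 genes had the highest pairwise correlation among the 9, a Pearson r of 0.88 on log2(CPM + 1) values that includes the difference between the groups.

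Il1b, which encodes the cytokine IL-1β, showed the largest difference of the 9 genes. It is at chr2:129364570-129371139 on the minus strand (ENSMUSG00000027398.13) and overlaps the antisense gene Il1bos. Whether the counting used strand is not given in the sources used here, so reads of these genes could be mixed. Its level was 3.43, 2.81 and 2.46 CPM in vehicle and 0.601, 0.358 and 0.309 CPM in YJ1206 tumors, from 76, 75 and 38 counts against 11, 8 and 6. The lowest vehicle library was several times above the highest treated library, and each group was narrow. The means were 2.90 ± 0.49 and 0.423 ± 0.156 CPM (SD, n = 3 each), so that the fitted log2 fold change was -2.78 with a standard error of 0.30, or 6.87-fold lower in treated tumors. It ranged from -3.10 to -2.61 with single libraries left out, and was -2.71 with libraries 1 and 2 alone.

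Il1r2, the decoy receptor that binds IL-1 without signaling, did not follow Il1b. It is at chr1:40074079-40125231 on the plus strand and overlaps the annotated genes Gm16894 and Gm37347, from which its reads may not be fully separated. Its level was 0.451, 0.638 and 0.711 CPM in vehicle and 0.437, 0.492 and 1.03 CPM in YJ1206 tumors, so the treated libraries included both the lowest and the highest value. The log2 fold change was 0.13 with a standard error of 0.42. It was negative without YJ1206 library 3, at -0.35, without vehicle library 1, at -0.04, with libraries 1 and 2 alone, at -0.23, and on the log2(TPM + 1) scale, at -0.17.

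The 3 other surface receptors of the set lay between these extremes. Csf3r, the receptor for granulocyte colony-stimulating factor (chr4:126024550-126044440, plus strand), was at 4.87, 3.86 and 4.78 CPM in vehicle and at 2.68, 4.79 and 4.54 CPM in YJ1206 tumors. Only YJ1206 library 1 was below the vehicle libraries, and libraries 2 and 3 of the treated group lay within their range. The log2 fold change of -0.16 (standard error 0.24) became 0.05 without YJ1206 library 1, and was -0.22 with libraries 1 and 2 alone.

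Clec4d is a C-type lectin receptor of myeloid cells that binds mycobacterial glycolipids (chr6:123262111-123275265, plus strand). It was at 4.33, 1.84 and 3.68 CPM in vehicle and at 2.18, 2.42 and 2.37 CPM in treated tumors. Vehicle library 2 was below all 3 treated libraries, and the other vehicle libraries were above them. The log2 fold change was -0.48 with a standard error of 0.32, ranged from -0.79 without vehicle library 2 to -0.21 without vehicle library 1, and was -0.41 with libraries 1 and 2 alone.

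Trem1, which amplifies inflammatory signaling in neutrophils and monocytes through the adaptor Tyrobp (chr17:48232768-48246924, plus strand, overlapping the annotated pseudogene AC241601.2), was at 1.40, 0.900 and 0.905 CPM in vehicle and at 1.09, 0.448 and 0.412 CPM in YJ1206 tumors. YJ1206 library 1 fell inside the vehicle range, and libraries 2 and 3 were below it. The log2 fold change was -0.73 with a standard error of 0.44, ranged from -1.30 without YJ1206 library 1 to -0.49 without vehicle library 1, and was -0.59 with libraries 1 and 2 alone. Its reads could be shared with the pseudogene.

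The 2 secreted effectors showed no separation of the groups. Mmp9, a gelatinase stored in neutrophil granules and also made by macrophages and tumor stroma (chr2:164940780-164955850, plus strand), was at 1.58, 1.84 and 1.75 CPM in vehicle and at 0.819, 1.97 and 1.19 CPM in YJ1206 tumors. YJ1206 library 2 was the highest of all 6 libraries, and the other treated libraries were the lowest. The log2 fold change was -0.36 with a standard error of 0.33, ranged from -0.78 without YJ1206 library 2 to -0.12 without YJ1206 library 1, and was -0.28 with libraries 1 and 2 alone. Retnlg, a resistin-like protein of mouse neutrophils (chr16:48872621-48874496, plus strand), had 9, 7 and 4 counts in vehicle and 5, 8 and 5 in treated libraries. It did not pass the filter on low counts, and the ratio of treated to vehicle levels was 0.964 with a 95% counting interval of 0.481 to 1.92.

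**Figure D1:**
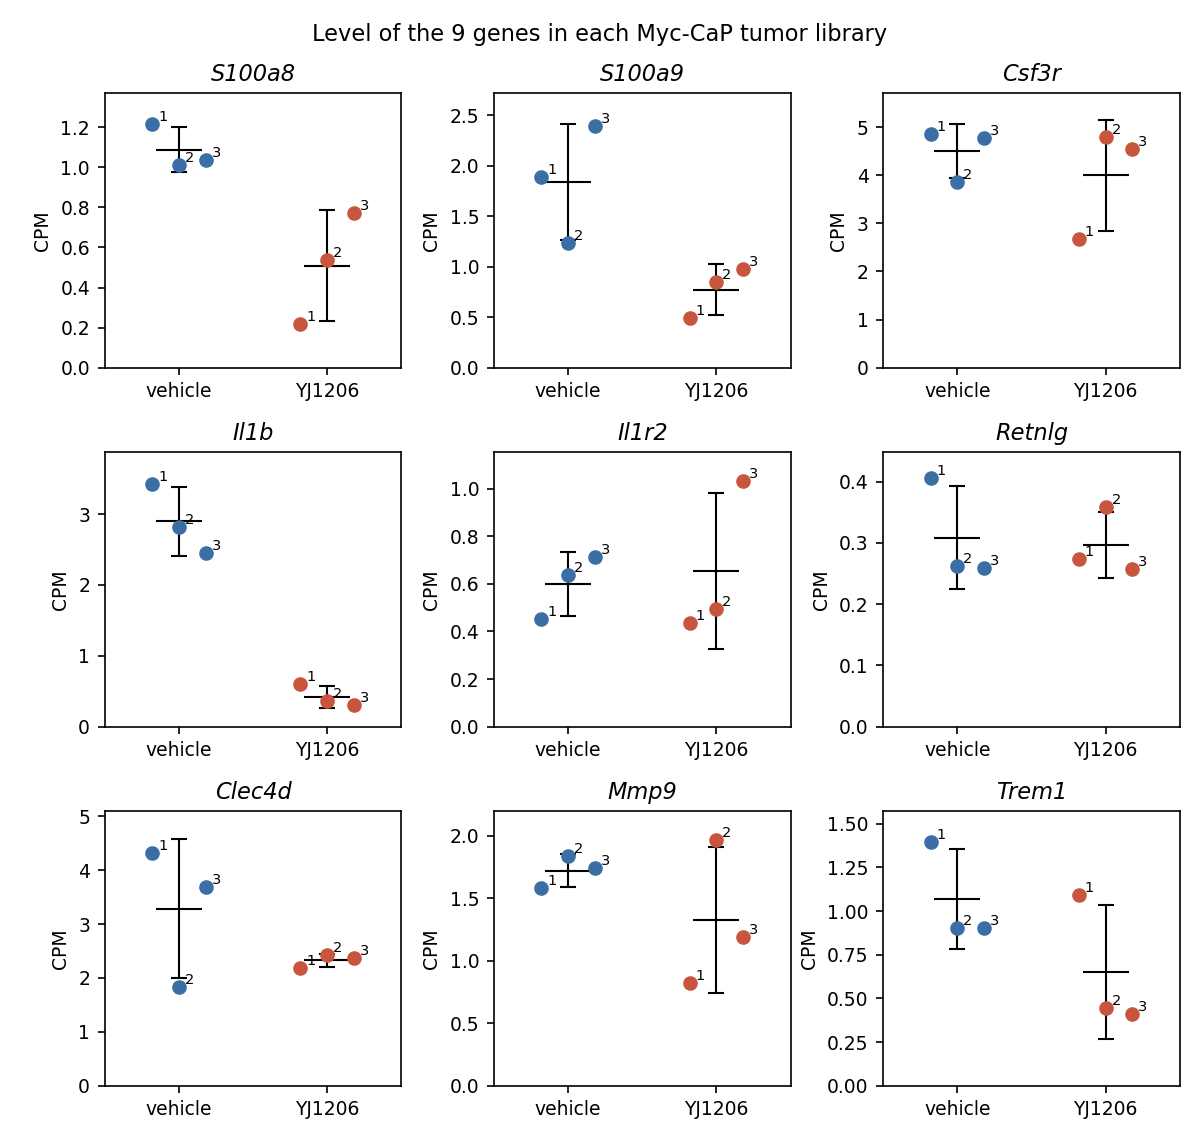
Level of each of the 9 genes in CPM (vertical axis from 0) in the 3 vehicle (blue) and 3 YJ1206 (red) tumor libraries, numbered by library, with black bars for the mean and SD. Il1b, S100a8 and S100a9 show no overlap between the groups, and the other 6 genes overlap.

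Over the 9 genes, 3 had every treated library below every vehicle library, with CPM and with TPM (which also accounts for transcript length) alike. Of the 15558 genes tested in tumors, 22.8% had the same pattern, and since the genes were picked on this contrast nothing is read from the difference between these shares. Of the 8 genes that passed the filter, 7 had a negative and 1 a positive log2 fold change, with a median of -0.61, beside a median of 0.01 over all genes tested. The summed level of the 9 genes was 19.6, 14.4 and 18.0 CPM in vehicle and 8.79, 12.2 and 11.9 CPM in YJ1206 libraries. Without Il1b the sums were 16.1, 11.6 and 15.5 CPM against 8.19, 11.9 and 11.5 CPM, and the groups then overlapped. The plot of fitted changes shows the same order, with Il1b far to the left of the other genes and Csf3r and Il1r2 on both sides of 0.

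**Figure D2:**
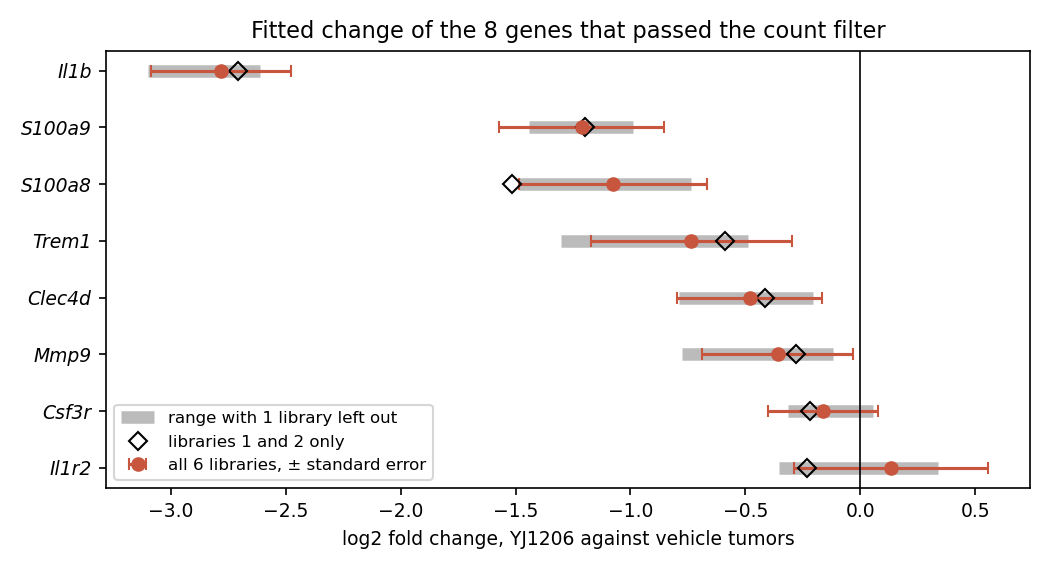
Fitted log2 fold change of YJ1206 against vehicle tumors (horizontal axis) for the 8 genes that passed the count filter, as red points with standard errors, with grey bars for the range over fits with 1 library left out and open diamonds for libraries 1 and 2 alone. Il1b at -2.78 lies lowest, and the grey bars of Csf3r and Il1r2 cross 0.

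Per unit of transcript length, the mean level in vehicle tumors was highest for S100a9 at 9.65 ± 3.15 TPM (SD, n = 3), then S100a8 at 6.26, Clec4d at 4.67, Il1b at 3.98, Csf3r at 2.34, Il1r2 at 1.38, Retnlg at 1.28, Mmp9 at 1.10 and Trem1 at 0.680 TPM. In YJ1206 tumors the order was S100a9 at 3.84 ± 1.24 TPM (SD, n = 3), Clec4d at 3.12, S100a8 at 2.78, Csf3r at 1.92, Retnlg at 1.16, Il1r2 at 1.04, Mmp9 at 0.663, Il1b at 0.552 and Trem1 at 0.373 TPM. S100a9 was first and Trem1 last in both groups, and Il1b moved from rank 4 to rank 8 of 9. Neighbours in either order overlapped in their ranges over libraries, except Il1b and Csf3r in vehicle tumors.

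The 9 genes did not vary as a unit. Of the 36 pairs, 29 had a positive correlation over the 6 libraries, with a median Pearson r of 0.33 and a range from -0.61, for Il1r2 and Retnlg, to 0.88. These values include the difference between the groups and the counting noise of low counts, and share the libraries' depth. The mean of the standardized levels of the 9 genes was highest in vehicle library 1 at 0.83 SD, followed by vehicle library 3 at 0.53 and library 2 at 0.05, and was lowest in YJ1206 library 1 at -0.95, with -0.20 and -0.26 in libraries 2 and 3. The genes whose level followed this mean profile most closely among 14231 candidates with at least 1 CPM were Zfp7, Nemp1, Mybpc1, Rcor2, Anapc11 and Sptb, with a Pearson r of 0.994 to 0.996 over the 6 libraries. None of these is on the lists of myeloid genes used here. Their r values also include the difference between the groups, and are the highest picked from all candidates over only 6 libraries.

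In cultured Myc-CaP cells the 9 genes were almost without reads. S100a9, Retnlg, Clec4d and Trem1 had 0 counts in all 6 libraries, and S100a8, Il1b, Il1r2 and Mmp9 had at most 2 in any library. Csf3r alone exceeded 3 counts, with 7, 0 and 5 in DMSO and 0, 0 and 1 in YJ1206 libraries. None of the 9 passed the filter on low counts in cells, and without that filter the 5 with any reads had edgeR adjusted p of 0.104 for Csf3r to 0.857 for Mmp9. In that comparison edgeR called 38.3% of the 11826 genes tested lower and 37.8% higher.

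To place the 9 genes among their pathways, 9 lists of 145 other genes were examined in the tumors: granule proteins, mature neutrophil genes, colony-stimulating factors and myeloid transcription factors, attractants, the IL-1 family, S100 proteins, TREM and C-type lectin receptors, matrix metalloproteinases and resistins. Of the 112 genes tested, edgeR's quasi-likelihood test with Benjamini-Hochberg adjustment over all genes called 13 lower and 24 higher in YJ1206 tumors, beside 14.9% and 11.9% of all genes tested, and the median log2 fold change was 0.14. The calls were uneven in strength: 12 of the 37 held whichever single library was left out, 7 higher and 5 lower, and the other 25 reached an adjusted p of 0.052 to 0.157 without 1 of the libraries. None of the 37 held with libraries 1 and 2 alone.

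The genes that define the neutrophil were at or near 0 in the tumors of both groups, and no gene of the 2 neutrophil lists was called lower. The genes named here were singled out after their values were seen. Ly6g and Ms4a3 had 0 counts in all 6 libraries. Elane and Ctsg, the granule proteases, had at most 1 count in any library, as did the chemokine receptor Cxcr1. The antimicrobial proteins Camp and Ngp had at most 7 and 11 counts. Cxcr2, with 164 to 296 counts, showed a log2 fold change of -0.19 with an adjusted p of 0.25 from edgeR, but it also had up to 21 counts in the cultured cells. Mpo had a log2 fold change of 0.41 with an adjusted p of 0.428, also from edgeR.

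Among granule proteins 5 of 15 genes were tested, 2 were called higher and none lower. Hp, the hemoglobin-binding haptoglobin, rose from 20.2 to 22.4 CPM in the vehicle libraries to 121, 85.3 and 98.2 CPM in YJ1206 tumors (log2 fold change 2.24, standard error 0.13, edgeR adjusted p = 0.00055). Lcn2, the iron-siderophore binder lipocalin-2, rose from 22.6, 113 and 58.1 to 250, 376 and 330 CPM (log2 fold change 2.30, standard error 0.51, edgeR adjusted p = 0.0154). The call of Lcn2 held in 3 of the 6 fits with a library left out, and its edgeR adjusted p was highest, at 0.0707, without vehicle library 3. Both genes are also made by epithelial cells, and both rose in cultured Myc-CaP cells with YJ1206, by log2 fold changes of 4.31 and 4.72 (edgeR adjusted p = 8.34e-10 and 5.66e-11), from at most 58 and 52 counts in any library.

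Of 19 mature neutrophil genes 11 were tested, 5 were called higher and none lower, with a median log2 fold change of 0.45. Ccr1, a receptor for CC chemokines on neutrophils, monocytes and macrophages, rose from 3.79 ± 0.30 to 10.9 ± 0.8 CPM (SD, n = 3 each; log2 fold change 1.52, edgeR adjusted p = 0.00092). Lrg1, a secreted glycoprotein, rose by a log2 fold change of 1.21, Slfn4, an interferon-induced myeloid gene, by 0.99, and Itgam, the integrin chain CD11b of myeloid cells, by 0.63. These 4 calls held whichever single library was left out. The call of Ptafr, the receptor for platelet-activating factor, at a log2 fold change of 0.45 and an edgeR adjusted p of 0.0479, held in only 1 of the 6 fits with a library left out, reaching 0.157 without vehicle library 3, and was also lost without the count filter, with DESeq2 and with limma on TPM.

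Among colony-stimulating factors and myeloid transcription factors, 13 of 16 genes were tested, 2 rose and 3 fell. Socs3, the feedback inhibitor of cytokine receptors including that for granulocyte colony-stimulating factor, fell from 44.1 ± 9.6 to 20.3 ± 2.7 CPM (SD, n = 3 each), at a log2 fold change of -1.12 (edgeR adjusted p = 0.00479). Jak2, the kinase of those receptors, rose by a log2 fold change of 0.56 (edgeR adjusted p = 0.00838). Both calls held whichever single library was left out. In cultured cells with YJ1206, Socs3 was also called lower, at a log2 fold change of -0.56 (edgeR adjusted p = 1.33e-07). Jak2 was lower there, at -1.09, opposite to the tumors. Cebpa and Cebpb, transcription factors of the granulocyte lineage that epithelial cells also express, had log2 fold changes of -0.46 and -0.66, and Stat3 had 0.34. Their calls held in 5, 1 and 2 of the 6 fits with a library left out, and their edgeR adjusted p reached 0.0524, 0.115 and 0.0888 without YJ1206 library 3.

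Among neutrophil attractants and their receptors 16 of 19 genes were tested, 2 rose and 2 fell, and none of these calls held with every library left out in turn. Cxcl1, a ligand of Cxcr2, had a log2 fold change of -0.96 and complement C3 one of -2.52. C3 was at 74.1, 8.78 and 52.7 CPM in vehicle and at 7.68 to 8.19 CPM in treated libraries, so vehicle library 2 was close to the treated group. Ccl4 and the complement receptor C3ar1 had log2 fold changes of 1.41 and 0.65. Without 1 library the highest edgeR adjusted p of these genes was 0.141 for Cxcl1, 0.111 for C3 and 0.0621 for C3ar1, in each case without YJ1206 library 3, and 0.12 for Ccl4 without YJ1206 library 1. The call of C3ar1 held in 4 of the 6 fits with a library left out and those of Cxcl1, C3 and Ccl4 in 1 each. The abundant members Il17rc and Lta4h had log2 fold changes of 0.18 and -0.14 and were not called.

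The IL-1 family had few calls beside the low Il1b. Of 22 genes 21 were tested, 2 were called higher and 1 lower. The kinase Irak2 had a log2 fold change of 0.64, the receptor chain Il18r1 0.67 and the chain Il18rap -0.97. Their highest edgeR adjusted p with a library left out was 0.0666 and 0.111 for Irak2 and Il18rap without YJ1206 library 3, and 0.0624 for Il18r1 without vehicle library 3. The calls of Irak2 and Il18r1 held in 4 of those 6 fits and that of Il18rap in 2. Irak1, the most abundant member, had a log2 fold change of -0.17 with an edgeR adjusted p of 0.132. Casp1, which cleaves the IL-1β precursor, and the sensor Nlrp3, both singled out after their values were seen, had log2 fold changes of 0.17 and 0.14 with edgeR adjusted p of 0.659 and 0.705.

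In the S100 family and the receptors of calprotectin, 15 of 17 genes were tested, 5 rose and 5 fell. S100a10, the partner of annexin A2, fell from 248 ± 16 to 161 ± 13 CPM (log2 fold change -0.62, edgeR adjusted p = 0.00263). S100a4, a gene of motile and mesenchymal cells, fell from 27.9 ± 2.3 to 15.7 ± 3.0 CPM (SD, n = 3 each), for which the log2 fold change was -0.83 (edgeR adjusted p = 0.00764). These 2 calls held whichever single library was left out. The other called genes, S100a6, S100a3 and S100a7a among the lower and S100a1, S100a13, S100a14, Ager and Tlr4 among the higher, reached an edgeR adjusted p of 0.068 to 0.136 without vehicle library 3 or YJ1206 library 3, and held in 1 to 4 of the 6 fits with a library left out. Of these, S100a3, S100a7a, Ager and Tlr4 were named after their values were seen. S100a11 had a log2 fold change of -0.14 and was not called.

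Among TREM and C-type lectin receptors and their adaptors 14 of 18 genes were tested and 3 were called higher, each with a log2 fold change of 0.67 to 0.68. They were Trem2, a lipid receptor of macrophages, Clec4a1, and Fcer1g, the signaling chain that Clec4d uses. Without 1 library their highest edgeR adjusted p was 0.11 for Trem2 (without vehicle library 3), 0.14 for Clec4a1 (without YJ1206 library 3) and 0.101 for Fcer1g (without YJ1206 library 2), and each call held in 2 of the 6 fits. Tyrobp, the signaling partner of Trem1, had a log2 fold change of 0.32 with an edgeR adjusted p of 0.251.

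Among matrix metalloproteinases and their inhibitors 15 of 16 genes were tested, 3 rose and 2 fell. Mmp7, the epithelial matrilysin, rose from 0.090, 0.413 and 0.323 CPM to 7.04, 7.61 and 5.77 CPM (log2 fold change 4.58, edgeR adjusted p = 0.000764). Mmp3, stromelysin of fibroblasts, fell from 6.18 ± 1.83 to 1.17 ± 0.04 CPM (log2 fold change -2.39, edgeR adjusted p = 0.00186). Timp1, the inhibitor that binds Mmp9, fell from 33.9 ± 1.2 to 14.4 ± 0.9 CPM (SD, n = 3 each), with a log2 fold change of -1.23 (edgeR adjusted p = 0.000629). These 3 calls held whichever single library was left out. In cultured cells with YJ1206, Timp1 was also called lower, at a log2 fold change of -1.06 (edgeR adjusted p = 2.35e-15). Mmp7 and Mmp3 had 0 counts in the cultured cells. Timp2 and Timp4 had log2 fold changes of 0.34 and 0.88, and their edgeR adjusted p was 0.148 and 0.0519 without vehicle library 3, the calls holding in 2 and 5 of the 6 fits with a library left out. Of the resistin family, relatives of Retnlg, 2 of 3 genes were tested and none was called, with log2 fold changes of -0.03 for Retn and -1.17 for Retnla (edgeR adjusted p = 0.939 and 0.209).

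**Figure D3:**
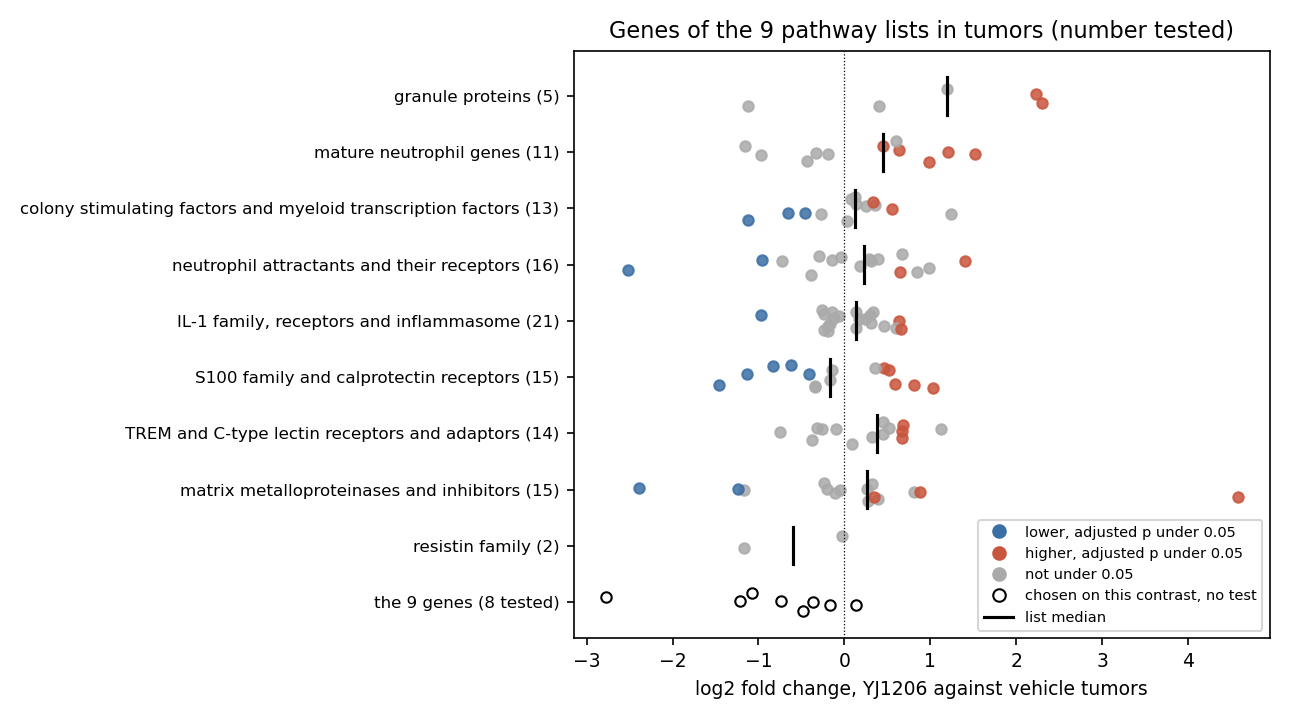
Log2 fold change of YJ1206 against vehicle tumors (horizontal axis) for the tested genes of the 9 pathway lists, one point per gene, blue for genes called lower, red for genes called higher and grey for the others, with a black line at each list's median and open circles for the 8 tested genes of the set, which were chosen on this contrast. The neutrophil lists in the upper rows hold no blue point, while Il1b at -2.78 lies left of every other point.

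Markers of other cell types moved in the same libraries. Of 9 macrophage markers 4 were called higher, C1qa, C1qb, C1qc and Fcgr1. Of all genes tested, 11.9% were called higher and 14.9% lower. The other macrophage markers were not called, with log2 fold changes of 0.49 for Adgre1, 0.41 for Cd68, 0.05 for Mrc1, 0.01 for Mertk and -1.22 for Cd163. The summed level of macrophage markers was 161 to 250 CPM in vehicle and 223 to 287 CPM in YJ1206 tumors. The summed markers of all leukocytes were at 82.4 to 107 and 96.5 to 130 CPM, and none of the 5 was called. None of the 4 monocyte markers tested was called, and neither was any of the 4 tested for dendritic cells. The summed markers of all leukocytes and of macrophages overlapped between the groups. Whether these sums bear on the levels of Il1b, S100a8 and S100a9 was not tested.

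All 3 tested markers of mast cells and basophils, Cpa3, Tpsb2 and Cma1, were called lower, with a summed level of 4.16 to 13.1 CPM in vehicle and 1.42 to 2.64 CPM in YJ1206 tumors. The 5 red blood cell markers summed to 1283 to 1714 CPM in vehicle and 422 to 1115 CPM in YJ1206 tumors without overlap, although none was called and their median log2 fold change was -0.93. YJ1206 library 1, the lowest of all 6 for S100a8, S100a9, Csf3r, Il1r2 and Mmp9, was also the lowest for red blood cell and fibroblast markers. For Il1b and Trem1 it was instead the highest of the treated libraries, at 0.601 and 1.09 CPM. Skeletal muscle markers ranged from 16.3 to 675 CPM in vehicle and from 8.41 to 9.64 CPM in treated libraries, and 4 of the 4 tested were called lower. Fibroblast markers summed to 743 to 2301 CPM in vehicle and 515 to 1274 CPM in YJ1206 tumors, with none called.

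Of the remaining lists, 1 marker each of T cells, endothelial cells and adipocytes was called higher, namely Cd8a, Cdh5 and Fabp4. The call of Cd8a held in 2 of the 6 fits with a library left out. Among the other T cell markers, Cd3d, Cd4 and Cd8b1 had log2 fold changes of -0.17, 0.11 and 0.45 and were not called. Cd3d also had up to 93 counts in cultured cells. Cd3e had 2, 11 and 6 counts in vehicle and 1, 5 and 7 in YJ1206 tumors, and Cd3g 1, 7 and 2 against 0, 1 and 3. Fabp4 was also at a mean of 33.6 CPM in cultured cells with DMSO. The other adipocyte markers were not called or did not pass the filter: Cfd had 60, 0 and 38 counts in vehicle and 1, 2 and 0 in YJ1206 tumors, Adipoq 16, 3 and 11 against 1, 2 and 0, and Plin1 a log2 fold change of -0.27. None was called among the tested markers of B cells, eosinophils, keratinocytes and epithelial tumor cells, and no marker of NK and cytotoxic cells passed the filter. Epx of the eosinophil list and Lor and Sprr1b of the keratinocyte list were at 0 counts in all tumor libraries. Summed markers were nonetheless higher in all 3 treated libraries than in all vehicle libraries for epithelial tumor cells (69.8 to 85.8 against 86.7 to 96.9 CPM), endothelial cells (95.9 to 103 against 110 to 122 CPM), adipocytes (31.4 to 35.2 against 41.9 to 50.4 CPM) and keratinocytes (2.88 to 12.2 against 15.4 to 18.2 CPM). Fabp4 made up most of the adipocyte sum, so this sum does not show the other adipocyte markers. Krt6a made up most of the keratinocyte sum, and it also had up to 739 counts in cultured cells. Krt8 made up most of the epithelial sum. In cultured cells it rose from a mean of 3.00 CPM with DMSO to 32.4 CPM with YJ1206. Over the 3 epithelial markers tested in tumors the median log2 fold change was -0.10. The epithelial marker Epcam had at most 4 counts in any tumor library and 0 in cultured cells. Of the 14 marker calls, 3 held whichever single library was left out, C1qb, Cpa3 and Fabp4, and the other 11 reached an edgeR adjusted p of 0.0527 to 0.169 without vehicle library 3, YJ1206 library 2 or YJ1206 library 3. The part of blood, mast cells, muscle, macrophages or any other cell type in the levels of the 9 genes was not tested.

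**Figure D4:**
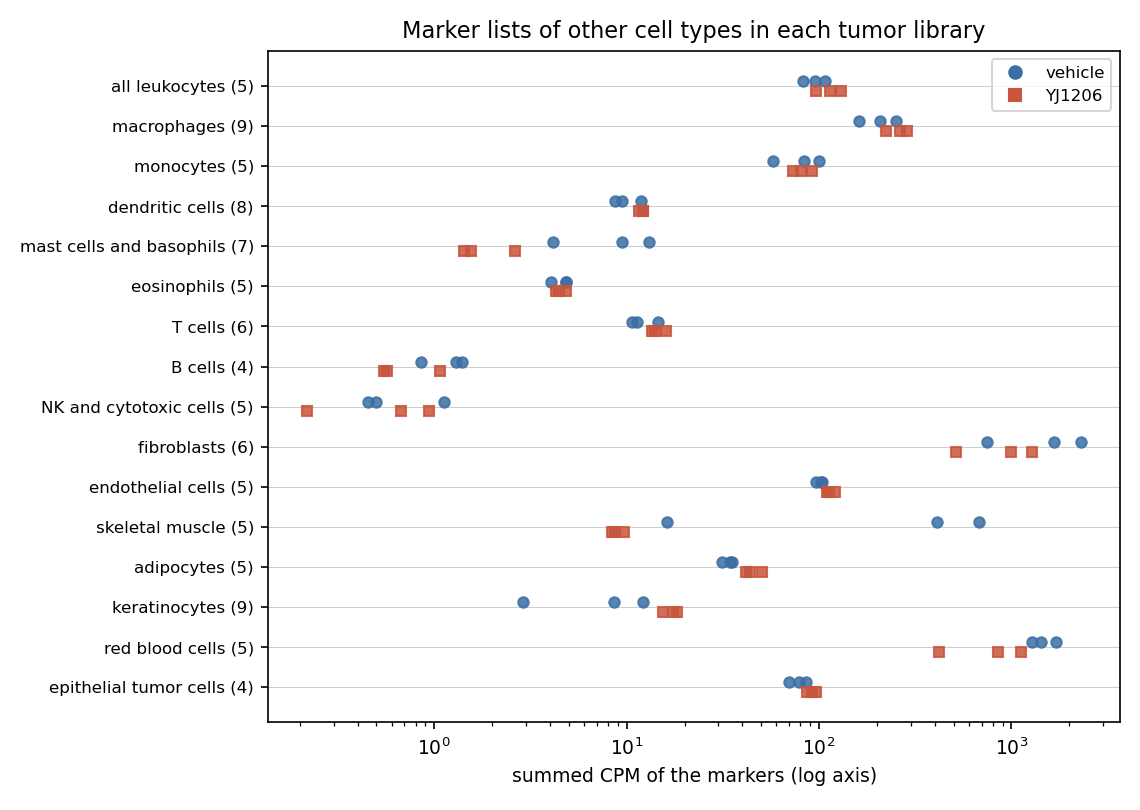
Summed level of the markers of 16 cell types in CPM (horizontal log axis) in the 3 vehicle (blue circles) and 3 YJ1206 (red squares) tumor libraries, with the number of markers in the table in brackets. Markers of mast cells, red blood cells and skeletal muscle were lower in all 3 treated libraries. Summed markers of epithelial, endothelial and adipose cells and keratinocytes were higher. The epithelial sum was mostly Krt8, the adipose sum mostly Fabp4 and the keratinocyte sum mostly Krt6a. Those of all leukocytes, macrophages and monocytes overlapped between the groups.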

How the data were processed

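The submitters' processing notes name kallisto and the mouse build GRCm38 (mm10). The authors deposited, for tumors and for cells, a table of estimated counts per gene and a table of TPM values, scaled for transcript length to 1000000 per library. Estimated counts were rounded, and tumors and cells were fitted apart, 6 libraries each, in edgeR 4.0.16 under R 4.3.3 (filterByExpr, TMM, quasi-likelihood test). Genes with a Benjamini-Hochberg adjusted p under 0.05 were called. The tests had been planned for counts, and rounding was the only change. CPM uses TMM library sizes. The scripts were tested on simulated data. Gene positions came from GENCODE M21 and promoters from RefSeq. Alternatives were DESeq2 1.42.0, other scalings, no count filter, limma 3.58.1 on log2(TPM + 1) or log2(TPM + 0.1), libraries left out, and a replicate block. The 9 genes and all lists were chosen with earlier results of these data known. From each list the text names every called gene where 5 or fewer were called, otherwise the 3 most abundant called genes in each direction, and the 2 most abundant genes, by mean TPM. Intervals of ratios are exact (Clopper-Pearson) and, like the floor of 3 counts, cover counting error only. Of the epithelial markers, 2 are not reported here. Of the T cell markers, 2 are not in the tables used here.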

Additional observations from a re-analysis of the deposited data

Results flagged for a closer look

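Genes of the pathway lists that were called in opposite directions in tumors and in cultured cells were looked for. Of the 18 called in both, 9 moved the same way and 9 the opposite way, and in 7 of the latter every treated library lay beyond every control library in both materials. Over all genes, 2966 were called in both, 41.3% of them in opposite directions and 40.5% in opposite directions without overlap, so the shares of the lists, 50% and 38.9%, were near those of all genes. The difference between the materials was not tested for any of them. The labels give total RNA for the tumors and polyA RNA for the cells, although the protocol given for both removes ribosomal RNA from total RNA. Jak2 had a log2 fold change of 0.56 in tumors and -1.09 in cells. Cxcl1 had -0.96 in tumors and 0.61 in cells. Among S100 genes, S100a3 had -1.46 and 0.57, S100a4 had -0.83 and 1.51, S100a6 had -0.41 and 0.42, and S100a10 had -0.62 and 0.25, in tumors and cells in turn. Tlr4, a receptor of calprotectin, had 0.59 in tumors and -0.23 in cells. With 3 libraries a group, no single library was tested for standing apart from its group.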

How the results depend on the processing

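The log2 fold changes of Il1b, S100a8 and S100a9 were negative under every alternative run, with that of Il1b at -1.68 on the log2(TPM + 1) scale, which understates changes of low genes, and those of Csf3r and Il1r2 changed sign under some. The main limit is library 3 of each group: with libraries 1 and 2 alone the number of tumor genes called fell from 4176 to 1, and the pathway genes called lower and higher fell from 13 and 24 to 0 and 0. With 1 library left out in turn, the tumor genes called ranged from 1877 to 5724, the pathway genes called lower from 5 to 20 and those called higher from 7 to 28. With the replicate number as a block, 7 pathway genes were called lower, and 10 of the 33 named calls were lost. The labels do not say whether libraries of 1 number are paired. Their deviations from the group means correlated at -0.01 to 0.00 in tumors and -0.03 to 0.01 in cells. These values show no shared signal, but they cannot settle whether the samples were paired. Of the 33 named calls, 1 was lost under each of DESeq2 size factors, total counts and no count filter, 3 with DESeq2 and 6 and 7 with limma on log2(TPM + 1) and log2(TPM + 0.1). No result reversed its direction past the threshold. In cells the 9 genes could be fitted only without the count filter, where none of the 5 with any reads was called.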
